A study of Mus musculus with 10 samples.

Results

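Macrophage and microglia identity was followed here through 10 genes chosen by symbol, out of 55487 genes in the count table of the mouse RPE/choroid complex. That complex is the retinal pigment epithelium (RPE) with the vascular layer behind it. The genes were Adgre1, Aif1, Csf1r, Cd68 and Lyz2, used as general macrophage genes, Mrc1, Cd163 and Lyve1, used as genes of resident perivascular macrophages, and Cx3cr1 and Trem2, used as microglia-like genes. All 10 were found once and all 10 passed the filter on low counts. In the 5 ADQ samples the iDTR allele, a diphtheria toxin receptor switched on by Cre, was combined with adiponectin-Cre, which acts in adiponectin-expressing fat cells throughout the body. The 5 control samples carried iDTR with no Cre in their label. ADQ and control alike were injected intraperitoneally with diphtheria toxin. Injections were daily for 7 weeks in mice with the Cre, per the design text, and the time for control was not stated in the sources used here. The labels used here give no age or sex and do not say whether samples were separate mice, so the p-values describe sample-to-sample spread, which may be technical.

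Macrophages of the choroid lie along its vessels and beneath the RPE, while microglia are the macrophages of the neural retina. Both lineages depend on the receptor encoded by Csf1r, which binds the cytokines CSF1 and IL-34. Perivascular macrophages are commonly told apart by scavenger and hyaluronan receptors (Mrc1, Cd163, Lyve1), and microglia by high Cx3cr1 and by TREM2 signalling through the adaptor Tyrobp. None of these genes belongs to a single cell type: Lyve1 is also a gene of lymphatic endothelium, Cx3cr1 is also expressed by monocytes, and Lyz2 by monocytes and neutrophils.

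Libraries held 43.6 to 64.1 M counts, with a mean of 50.6 ± 7.93 M in ADQ and 49.4 ± 1.2 M in control (SD, n = 5 each; two-sided exact permutation p = 0.921). The RPE marker genes were abundant in every library, with summed levels of 28548 to 43491 CPM (counts scaled to library size with TMM) in ADQ and 33463 to 48957 CPM in control. Libraries also differed in markers of neighbouring tissue. The 12 rod photoreceptor genes summed to 555 to 4174 CPM in ADQ and 596 to 2294 CPM in control, and the 10 adipocyte genes to 149 to 173 CPM in ADQ and 140.0 to 318 CPM in control. Most of the adipocyte sum came from Slc2a4 (85.1 CPM in ADQ and 86.0 CPM in control), Lpl and Fabp4, with similar means in both groups. Cfd averaged 4.16 ± 2.59 CPM in ADQ and 39.9 ± 26.4 CPM in control (edgeR adjusted p = 0.143). RNA was measured in whole tissue, so a different number of macrophages and a different amount of RNA per macrophage cannot be told apart.

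Aif1 and Adgre1 rose in ADQ, while Csf1r and Cd68, general macrophage genes of the same libraries, had nearly equal means in both groups. No perivascular gene and no microglia-like gene passed the test over all genes. Cx3cr1 was higher in every ADQ library than in any control library, and Lyve1 had the lower mean in ADQ, but neither passed. Of the 10 genes 2 rose and 0 fell (edgeR's quasi-likelihood test, Benjamini-Hochberg adjusted p under 0.05), against 0.827% of all 20684 genes tested, 0.74% in the higher and 0.087% in the lower direction. At an unadjusted p under 0.05 there were 3 of the 10 (Aif1, Adgre1 and Cx3cr1), against 13.8% of all genes. DESeq2 called the same 3 at an adjusted p under 0.05, against 3.34% of its genes, and voom with quality weights called Aif1 and Adgre1, against 3.21%. The median log2 fold change was 0.13 over the 10 genes and 0.01 over all genes tested. The 10 genes and the lists below were chosen with earlier results of these data known. Shares set beside all genes, here and below, are therefore descriptions and no test of a list.

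Per length of exon, the 10 genes spanned a wide range of levels. Lyz2, which encodes the bacteria-lysing enzyme lysozyme, stood far above the rest at 4036 RPKM (counts scaled by exon length and library size, mean of 10 libraries). It took 0.402 to 0.697% of all counts. Cd68, encoding a glycoprotein of late endosomes and lysosomes, followed at 317 RPKM and Csf1r at 53.4 RPKM. The ranges of these 3 genes over the 10 libraries did not overlap with each other or with any lower gene. Trem2 (26.9 RPKM), Aif1 (26.8 RPKM) and Adgre1 (18.3 RPKM) formed a middle tier in which neighbours overlapped. Cx3cr1 (2.84 RPKM), Mrc1 (2.61 RPKM), Lyve1 (1.38 RPKM) and Cd163 (0.352 RPKM) made up a low tier, again with overlapping neighbours. The middle and low tiers were separate, since the lowest Adgre1 library held 13.2 RPKM and the highest Cx3cr1 library 4.39 RPKM. Exon length here merges the exons of all annotated transcripts of a gene, which for Trem2 gives 4946 bases from 4 transcripts. A gene expressed mainly from a shorter transcript would stand higher, so the order and the tiers depend on this choice.

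**Figure D1:**
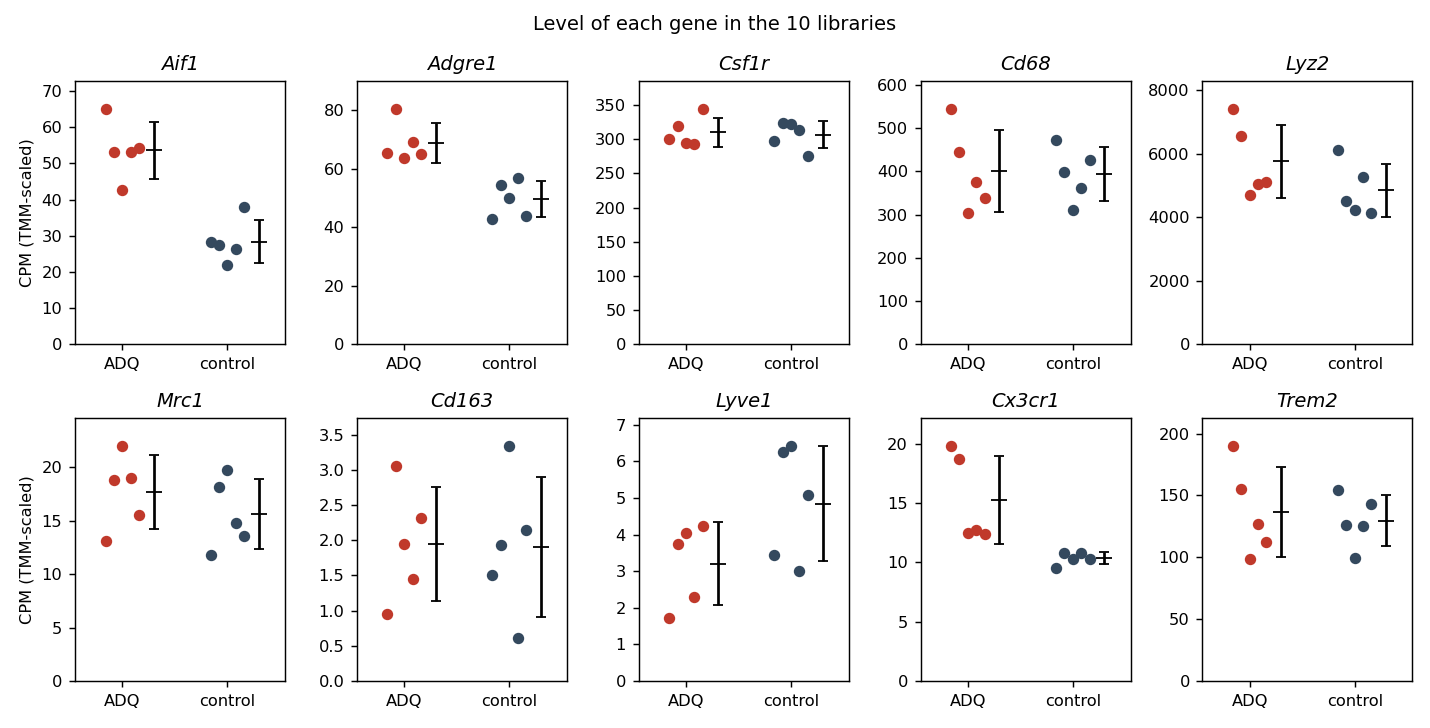
CPM (TMM-scaled, linear axis from 0) of each of the 10 genes in the 5 ADQ and 5 control libraries, 1 point per library, with mean ± SD as a bar beside the points. Aif1, Adgre1 and Cx3cr1 have no overlap between groups, with Aif1 at 53.7 CPM on average in ADQ and 28.3 CPM in control.

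Aif1 encodes IBA1, the calcium-binding, actin-bundling protein that is widely used to stain microglia and macrophages. It was at 65.0, 53.2, 42.7, 53.2 and 54.4 CPM in ADQ 1 to 5, against 28.2, 27.4, 21.9, 26.2 and 38.0 CPM in control 1 to 5. The groups did not overlap: the lowest ADQ library, ADQ 3, lay above the highest control library, control 5. Aif1 rose 1.89-fold, with a log2 fold change of 0.92 (SE 0.14, 95% interval 0.60 to 1.25, edgeR adjusted p = 0.00756). It was the gene with rank 36 by p among the 20684 tested. The call held with each library left out in turn, with adjusted p between 0.000412 and 0.0335. Control 5 was the control library closest to ADQ.

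Adgre1 encodes F4/80, an adhesion-type G protein-coupled receptor and the classical surface marker of mouse tissue macrophages. It was at 65.3, 80.4, 63.6, 69.3 and 65.1 CPM in ADQ 1 to 5, against 42.8, 54.4, 50.1, 56.7 and 44 CPM in control 1 to 5. Again all 5 ADQ libraries lay above all control libraries. Adgre1 rose 1.38-fold (log2 fold change 0.47, SE 0.10, 95% interval 0.24 to 0.70), but close to the threshold, with an edgeR adjusted p of 0.0476. The call was lost on leaving out any single one of the 10 libraries (adjusted p 0.0549 to 0.144), while the log2 fold change stayed between 0.41 and 0.52. Groups without overlap and higher in ADQ were seen for 3 of the 10 genes, the third being Cx3cr1, against 2.09% of all genes tested. Groups without overlap and lower in ADQ were seen for none of them, against 1.07% of all genes tested.

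Aif1 (ENSMUSG00000024397) lies on chromosome 17 at 35170991 to 35176068 on the minus strand, and Adgre1 (ENSMUSG00000004730) on the same chromosome at 57358691 to 57483527 on the plus strand, in GENCODE M21 on GRCm38. No other annotated exon overlaps either gene. The 250 bases before the annotated RefSeq start site are shown for Aif1, which rose, and for Mrc1, a perivascular gene that did not pass, from RefSeq (GRCm38.p6), each 5′ to 3′ on the strand of its gene. Capitals mark matches, on either strand, to GGAAGT (an ETS core of the kind PU.1 binds), TTCNNNGAA (the STAT site) or the interferon-response core of IRF factors, a pair of GAAA with any pair of bases between.
Aif1, chr17:35176053-35176302: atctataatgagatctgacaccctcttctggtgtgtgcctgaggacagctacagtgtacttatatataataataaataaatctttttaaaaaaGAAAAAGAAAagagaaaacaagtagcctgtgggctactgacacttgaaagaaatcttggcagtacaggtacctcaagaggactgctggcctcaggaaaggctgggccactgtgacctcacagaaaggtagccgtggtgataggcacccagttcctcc
Mrc1, chr2:14229164-14229413: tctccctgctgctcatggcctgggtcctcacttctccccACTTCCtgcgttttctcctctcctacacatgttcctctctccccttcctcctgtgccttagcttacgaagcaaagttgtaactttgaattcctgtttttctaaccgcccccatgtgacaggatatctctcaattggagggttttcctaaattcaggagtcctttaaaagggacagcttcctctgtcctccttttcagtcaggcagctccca
Windows were examined for 7 of the 10 genes (Aif1, Cd163, Cd68, Cx3cr1, Lyz2, Mrc1 and Trem2). The remaining genes were left out of this comparison, so whether their windows hold these matches was not tested. The Aif1 window held 1 interferon-response core, which the windows of the other 6 lacked, and 2.98% of all 32851 windows of that length hold it. GGAAGT was found once each before Mrc1 and Lyz2 (19.7% of all windows), and TTCNNNGAA before none of the 7 (7.02% of all windows). A match is a description of letters in a window.

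Csf1r, the receptor on which macrophage survival depends, was the steadiest of the 10 genes. It was at 301, 319, 295, 293 and 344 CPM in ADQ 1 to 5, against 298, 324, 322, 313 and 276 CPM in control 1 to 5. The groups overlapped throughout. The log2 fold change was 0.02, and its 95% interval of -0.17 to 0.21 bounds the difference (SE 0.08, edgeR adjusted p = 0.938). The whole range over the 10 libraries was 0.32 on the log2 scale, compared with 1.57 for Aif1. Csf1r (ENSMUSG00000024621, chromosome 18, 61100598 to 61132149) shares exon positions with Hmgxb3 on the opposite strand. Whether counting used strand is not given in the sources used here, so reads in that overlap cannot be told apart.

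Cd68 was at 544, 445, 304, 376 and 338 CPM in ADQ 1 to 5, against 472, 399.8, 310.2, 362 and 427 CPM in control 1 to 5. The highest and the lowest of all 10 libraries were both ADQ libraries, ADQ 1 and ADQ 3. The log2 fold change was 0.03 (SE 0.16, 95% interval -0.33 to 0.39, edgeR adjusted p = 0.954). Its sign turned under voom and with single libraries left out. Like Cd68, the RPE marker list was highest in ADQ 1 and control 1 (mean log2 CPM 10.57 and 10.71). It was likewise lowest in ADQ 3 and control 3 (10.13 and 10.25). Other libraries were ordered differently, since ADQ 5 exceeded ADQ 2 in the RPE list (10.51 against 10.33) but not in Cd68. Which cells of the tissue expressed Cd68 was not tested.

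Lyz2 averaged 5765 ± 1159.8 CPM in ADQ and 4856 ± 839.6 CPM in control (SD, n = 5 each). Libraries ran from 4708 to 7407 CPM in ADQ and from 4151 to 6135 CPM in control. ADQ 1 and ADQ 2 were higher than any control library, and the other 3 ADQ libraries lay within the control range. The log2 fold change of 0.25 (SE 0.15, 95% interval -0.11 to 0.60) did not pass (edgeR adjusted p = 0.48). Lyz2 has a close copy, Lyz1, on the same chromosome, and the first 90 coding bases of both (GENCODE M21 transcripts) show how near they are, with capitals at the 7 positions that differ.
Lyz2: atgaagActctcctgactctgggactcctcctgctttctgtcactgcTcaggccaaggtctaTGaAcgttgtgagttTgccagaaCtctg
Lyz1: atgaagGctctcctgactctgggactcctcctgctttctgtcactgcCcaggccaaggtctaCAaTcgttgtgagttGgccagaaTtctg
Over the whole coding sequence 422 of 444 bases are identical (95%), and 15.4% of all 50-base stretches of the Lyz2 transcript also occur in Lyz1. How the authors' counting assigned such reads is not given in the sources used here, so the split between the copies is uncertain. Lyz1 counts were 2.87 to 4.64% of Lyz2 counts in every library. Lyz1 averaged 226 ± 37.2 CPM in ADQ and 165 ± 34.5 CPM in control, a log2 fold change of 0.46 (SE 0.15) that did not pass (edgeR adjusted p = 0.196).

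**Figure D2:**
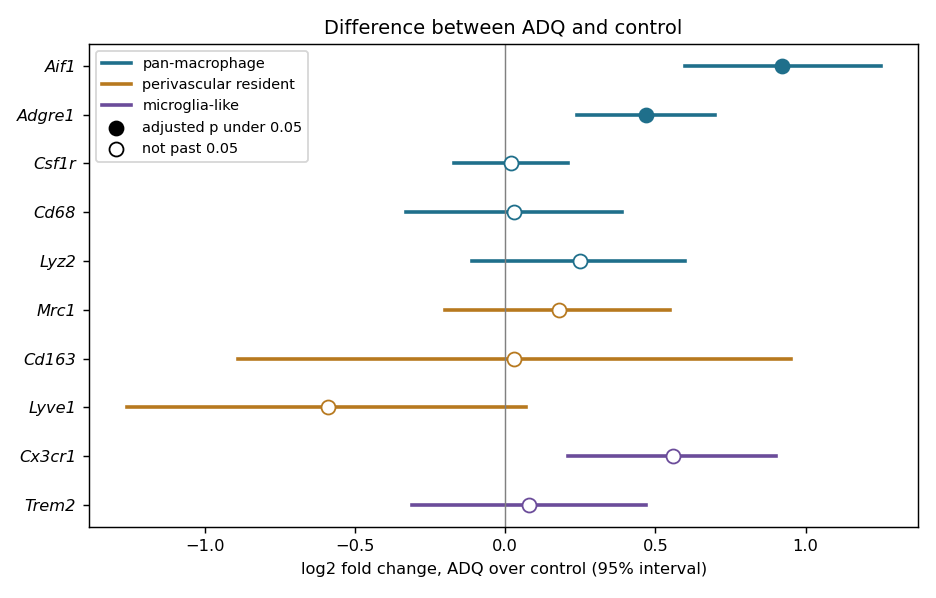
Log2 fold change (ADQ over control) of each of the 10 genes with its 95% interval, coloured by role, filled where the edgeR adjusted p was under 0.05. Aif1 (0.92) and Adgre1 (0.47) are filled, Csf1r (0.02) and Cd68 (0.03) sit at 0, and Lyve1 (-0.59) is the one gene left of 0, with an interval up to 0.07.

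None of the perivascular genes passed, and their differences lay on both sides of 0. Lyve1 encodes a hyaluronan receptor of perivascular macrophages and lymphatic vessels. It was at 1.71, 3.74, 4.04, 2.29 and 4.24 CPM in ADQ 1 to 5, against 3.44, 6.26, 6.42, 3.00 and 5.09 CPM in control 1 to 5. All 5 ADQ libraries lay below the control mean of 4.84 CPM, but ADQ 2, 3 and 5 lay within the control range. The log2 fold change of -0.59 (SE 0.29, 95% interval -1.26 to 0.07) did not pass (unadjusted p = 0.0585, edgeR adjusted p = 0.379). These are counts of 79 to 274 in ADQ and 139 to 329 in control.

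Mrc1, the mannose receptor CD206, had the higher mean in ADQ. It was at 13.1, 18.8, 22, 19.0 and 15.5 CPM in ADQ 1 to 5, against 11.8, 18.2, 19.7, 14.8 and 13.6 CPM in control 1 to 5. The groups overlapped, with a log2 fold change of 0.18 (SE 0.16, 95% interval -0.20 to 0.55, edgeR adjusted p = 0.64). Cd163, the scavenger receptor for haemoglobin bound to haptoglobin, was the rarest and most scattered gene. Its counts ran from 44 to 156 in ADQ and from 28 to 171 in control. The coefficient of variation was 41.4% in ADQ and 52.2% in control, and the 95% interval of the log2 fold change of 0.03 ran from -0.89 to 0.95 (edgeR adjusted p = 0.98).

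The lymphatic endothelium list, whose cells also express Lyve1, had 0 of 4 tested members past the threshold, against 0.827% of all genes tested. Its summed level was 240.4 to 301 CPM in ADQ and 262 to 299 CPM in control, of which Pdpn (248 ± 19.9 CPM in ADQ and 265 ± 15.4 CPM in control) made up most. Prox1, the defining lymphatic transcription factor, was at 0.608 ± 0.51 CPM in ADQ and 0.449 ± 0.394 CPM in control, and Ccl21a was at 0 counts in all 10 libraries. What part lymphatic cells had in the Lyve1 values was not tested.

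Neither microglia-like gene passed, with groups apart in Cx3cr1 and overlapping in Trem2. Cx3cr1, the receptor of the chemokine fractalkine, was at 19.8, 18.7, 12.5, 12.7 and 12.4 CPM in ADQ 1 to 5, against 9.55, 10.8, 10.3, 10.8 and 10.3 CPM in control 1 to 5. ADQ 1 and ADQ 2 stood well above the rest, the other 3 ADQ libraries were close together, and the controls formed the tightest group of any of the 10 genes (coefficient of variation 4.83%). The log2 fold change was 0.56 (SE 0.15, 95% interval 0.21 to 0.90), with an unadjusted p of 0.00227 and an edgeR adjusted p of 0.113. It passed with DESeq2 (adjusted p = 0.0262), and with rod marker level as a covariate (log2 fold change 0.71, adjusted p = 0.0316). It also passed with the length trend described below as a covariate (adjusted p = 0.0422). Cx3cr1 (chromosome 9, 119901616 to 120069879) shares exon positions with Gm33858 on the opposite strand.

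Trem2, a lipid-sensing receptor of microglia and of lipid-laden macrophages, was at 190.0, 155, 98.9, 127 and 112 CPM in ADQ 1 to 5, against 154, 126, 99.6, 125 and 143 CPM in control 1 to 5. The log2 fold change was 0.08 (SE 0.17, 95% interval -0.31 to 0.47, edgeR adjusted p = 0.859). ADQ 1 and ADQ 3 were again the highest and the lowest library of all 10, as in Cd68.

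Trem2 and Cd68 kept nearly the same ratio in every library. For each 100 counts of Cd68 there were 33.8 ± 1.04 of Trem2 in ADQ and 32.8 ± 1.13 in control (SD, n = 5 each), with all 10 libraries between 31.6 and 34.9. Log2 CPM values centred on each gene's mean differed between Trem2 and Cd68 by 0.04 on average over the 10 libraries, the closest of the 45 pairs among the 10 genes. Searching 13745 protein-coding genes whose mean level reached 1 CPM, Cd68 was the nearest to Trem2 and Trem2 the nearest to Cd68 by this measure. At the other end, Aif1 and Lyve1 differed by 0.77 on average, the most of any pair. All of these genes share the same libraries, depth and dissection, so likeness of this kind is a description.

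**Figure D3:**
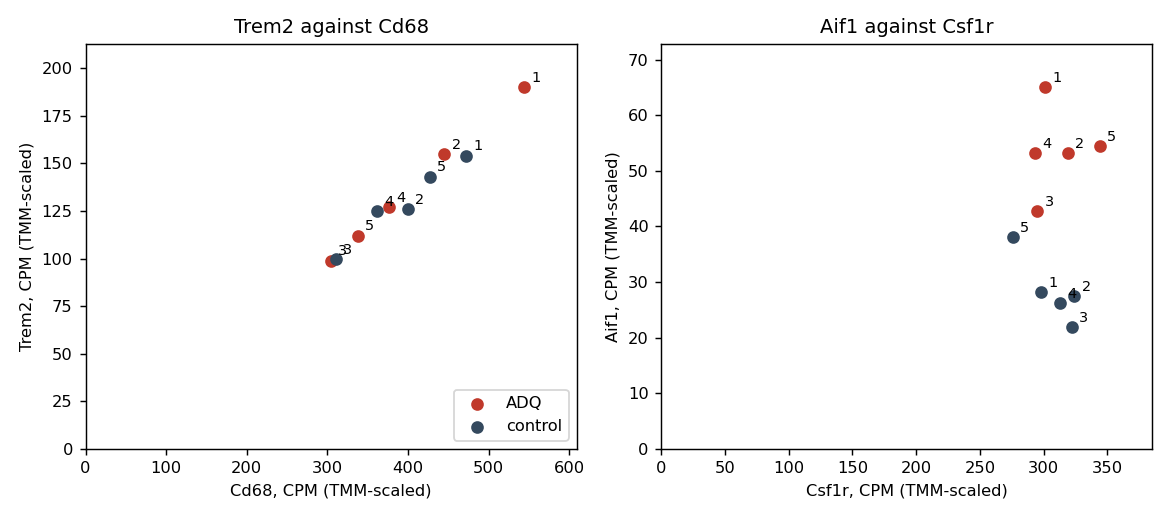
CPM (TMM-scaled, linear axes from 0) of Trem2 against Cd68 and of Aif1 against Csf1r, 1 point per library labelled with its replicate number. Trem2 and Cd68 lie along 1 line with ADQ and control mixed, while Aif1 separates ADQ from control at Csf1r levels of 276 to 344 CPM.

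By the same measure, the genes outside the 10 that were nearest to Cx3cr1 were Cd53, a tetraspanin of leukocytes (mean difference 0.102 log2 units over 10 libraries), Clec4a3, a C-type lectin of myeloid cells (0.116), and Ms4a6c (0.119). Of these, Cd53 rose (log2 fold change 0.43, edgeR adjusted p = 0.0341), while Clec4a3 (0.31, adjusted p = 0.401) and Ms4a6c (0.41, adjusted p = 0.239) did not pass. The nearest to Csf1r were Strn4 (0.023), Lonp2 (0.027) and Cers2 (0.027), and the nearest to Mrc1 were Ece1 (0.058), Ccnl2 (0.064) and Rassf3 (0.064). None of those 6 passed, with adjusted p from 0.488 for Rassf3 to 0.996 for Lonp2.

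Single libraries stood at opposite ends in different genes. ADQ 1 was the highest ADQ library in 5 genes (Aif1, Cd68, Lyz2, Cx3cr1 and Trem2) and the lowest in all 3 perivascular genes. ADQ 3 was the lowest in Adgre1, Aif1, Cd68, Lyz2 and Trem2 and the highest in Mrc1. Among the controls, control 3 was the highest in Mrc1, Cd163 and Lyve1 and the lowest in Aif1, Cd68 and Trem2. The libraries also differed in how counts depended on exon length: the slope of centred log2 CPM on log2 exonic length over 15917 genes was lowest in ADQ 1 (-0.0969) and highest in control 3 (0.119), with ADQ 3 at 0.0685. Cd68, Lyz2 and Aif1, with 1257, 1316 and 1532 exonic bases, were highest in ADQ 1 among the ADQ libraries. So were Cx3cr1 and Trem2, with 4505 and 4946. All these lengths merge the exons of every annotated transcript (3 for Cx3cr1 and 4 for Trem2). The RNA expressed from a gene can therefore be shorter than the length given. The genes lowest in ADQ 1, Lyve1, Cd163 and Mrc1, have 2919, 5461 and 6371 exonic bases. The part of exon length in which library was highest or lowest was not tested. With that slope as a covariate Aif1 rose by 0.96 on the log2 scale (edgeR adjusted p = 0.000306), Adgre1 by 0.47 (adjusted p = 0.0186), and Lyve1 was at -0.69 (adjusted p = 0.138).

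Relative to Csf1r in the same library, Aif1 and Adgre1 again separated the groups. Aif1 stood at 0.173 ± 0.0272 of the Csf1r CPM in ADQ and 0.0937 ± 0.0264 in control, and Adgre1 at 0.222 ± 0.0236 in ADQ and 0.162 ± 0.0141 in control (SD, n = 5 each). In both, all 5 ADQ libraries lay above the highest control. Cx3cr1 was at 0.0492 ± 0.0124 in ADQ and 0.0338 ± 0.00226 in control, with 4 of 5 ADQ libraries above the highest control and ADQ 5 below it. Lyve1 was at 0.0102 ± 0.00336 in ADQ and 0.0158 ± 0.00483 in control, with 2 of 5 ADQ libraries below the lowest control. The mean log2 ratio of Cd68 differed by -0.01 and that of Trem2 by 0.03 (ADQ minus control). These ratios are descriptions with no test.

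**Figure D4:**
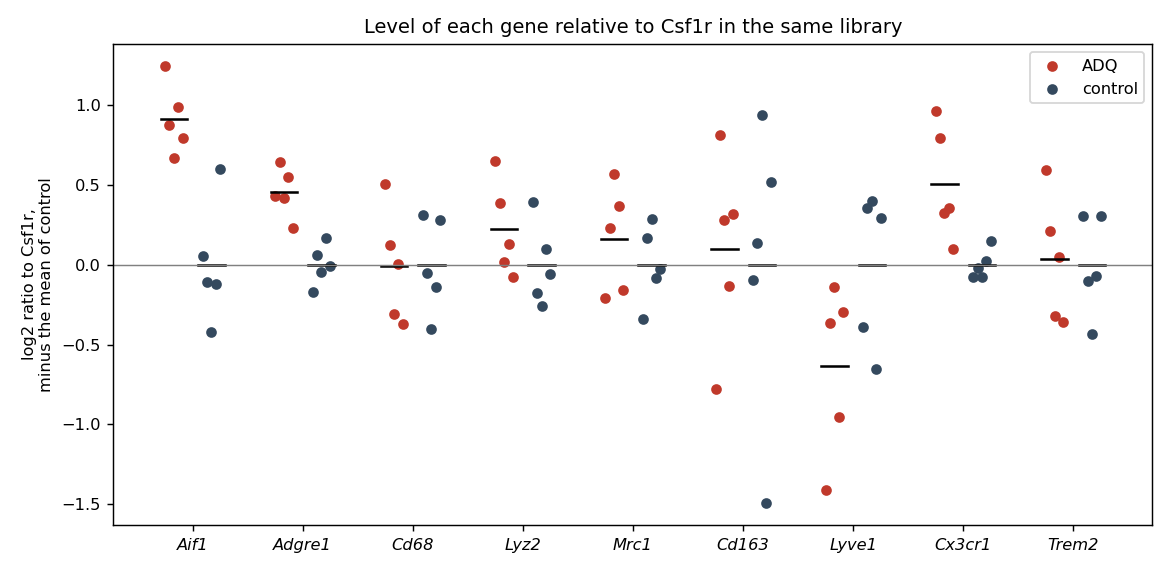
Log2 ratio of each gene's CPM to that of Csf1r in the same library, minus the mean over control, with 1 point per library and a bar at the group mean, ADQ left of control. The ADQ means are 0.91 for Aif1, 0.46 for Adgre1, 0.51 for Cx3cr1 and -0.63 for Lyve1.

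In the authors' deposited table Aif1 had a log2 fold change of 0.93 (adjusted p = 0.00057) and Adgre1 of 0.47 (adjusted p = 0.0132), and the other 8 genes had adjusted p-values of 0.0698 (Cx3cr1) to 0.972 (Cd68). Lyve1 stood at -0.64 in the authors' deposited table, with an interval of -1.26 to -0.03 and an adjusted p of 0.165. An adjusted p under 0.05 was given for 5.42% of all genes in the authors' deposited table.

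Of the other genes on which macrophage identity rests, 1 of 11 lineage factors and CSF1R ligands rose and 0 fell, with a median log2 fold change of 0.27. Over all genes tested 0.74% rose and 0.087% fell, with a median of 0.01. Irf8, a transcription factor required for monocyte, dendritic cell and microglial development and itself induced by interferon-gamma, rose 1.79-fold. It was at 88.6 ± 11.3 CPM in ADQ and 49.4 ± 12.6 CPM in control (SD, n = 5 each; log2 fold change 0.84, SE 0.15, edgeR adjusted p = 0.022, up to 0.0759 without 1 library). Csf1, the main ligand of the receptor, was at 55.6 ± 8.16 CPM in ADQ and 39.2 ± 9.68 CPM in control (adjusted p = 0.171), and Il34, the other ligand, at 13.4 ± 1.58 CPM in ADQ and 14.1 ± 3.86 CPM in control (adjusted p = 0.858). Runx1, a haematopoietic transcription factor, had a log2 fold change of 0.41 (adjusted p = 0.258), and Hcst, which encodes the adaptor DAP10, one of 0.61 (adjusted p = 0.39). Spi1, which encodes PU.1, had a log2 fold change of 0.27 (adjusted p = 0.452) and Tyrobp, the adaptor of TREM2, one of 0.31 (adjusted p = 0.453).

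Of 14 further genes of perivascular and resident macrophages none passed, against 0.827% of all genes tested. The median log2 fold change of the list was -0.28. A value above 0 was seen in 3 of the 14, against 10724 of all 20684 genes tested. Cbr2, a carbonyl reductase found in resident macrophages and also in other tissues, was at 11.9 ± 2.69 CPM in ADQ and 59.1 ± 61.9 CPM in control (fitted ratio of ADQ over control 0.202, edgeR adjusted p = 0.166). Its control libraries ran from 22.1 to 168 CPM and its ADQ libraries from 8.11 to 14.9 CPM, so the groups did not overlap, but the spread among the controls was wide. Groups apart and lower in ADQ were seen for 1 of the 14, against 1.07% of all genes tested. Cd209f, a lectin, was at 2.87 ± 1.3 CPM in ADQ and 4.99 ± 2.44 CPM in control (adjusted p = 0.42), and Fcna, a ficolin, at 3.47 ± 1.27 CPM in ADQ and 5.53 ± 2.4 CPM in control (adjusted p = 0.355). Cd209g, a lectin of the same cluster, had a log2 fold change of -0.61 (adjusted p = 0.463). Stab1, a scavenger receptor, was at 59.2 ± 6.76 CPM in ADQ and 51.4 ± 12.8 CPM in control (adjusted p = 0.575). Beside these values, the adipocyte list had 0 of 9 tested members past the threshold and a median log2 fold change of -1.42. Adipoq, whose promoter drives the Cre, was at 0.923 ± 0.614 CPM in ADQ and 4.36 ± 2.85 CPM in control (adjusted p = 0.369). The part of adipocytes in the perivascular values was not tested.

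Of 12 further microglia genes none passed, against 0.827% of all genes tested, and their median log2 fold change was 0.20. Values above 0 were seen in 10 of the 12, against 10724 of all 20684 genes tested. An unadjusted edgeR p under 0.05 was seen in 4 of the 12, against 13.8% of all genes tested. C1qa, a complement chain made by macrophages, was at 337 ± 67.4 CPM in ADQ and 269 ± 33.3 CPM in control (edgeR adjusted p = 0.314). Olfml3, which encodes a secreted protein, had a log2 fold change of 0.35 (adjusted p = 0.223). Levels of genes used as microglia markers differed widely, and which cells of the tissue expressed each of them was not tested. Tmem119, a membrane protein used as a microglia marker, was at 90.1 ± 6.69 CPM in ADQ and 88.7 ± 7.95 CPM in control (adjusted p = 0.925). P2ry12, a purine receptor, was at 2.17 ± 0.51 CPM in ADQ and 1.67 ± 0.771 CPM in control, and Sall1, a transcription factor, at 0.434 ± 0.388 CPM in ADQ and 0.483 ± 0.629 CPM in control. Neither P2ry12 (adjusted p = 0.617) nor Sall1 (adjusted p = 0.951) passed. Fcrls went the other way, with 9.13 ± 2.32 CPM in ADQ and 15.9 ± 7.02 CPM in control (adjusted p = 0.353). Rod genes, a mark of neural retina in the sample, had 0 of 12 past the threshold and a median of 1.30 on the log2 scale. With the rod level as a covariate Aif1 kept a log2 fold change of 0.95 (edgeR adjusted p = 0.0199) and Adgre1 one of 0.56 (adjusted p = 0.0298).

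Of 11 genes linked to TREM2 and to lipid-associated macrophages 1 rose and 0 fell, against 0.74% and 0.087% of all genes tested. The median log2 fold change of the list was 0.09. Clec7a, the beta-glucan receptor Dectin-1, rose 1.62-fold, to 75.8 ± 13.9 CPM in ADQ against 46.8 ± 3.34 CPM in control (SD, n = 5 each; edgeR adjusted p = 0.0116, at most 0.0448 without 1 library). Itgax, the integrin chain CD11c, was at 47.0 ± 3.97 CPM in ADQ and 32.8 ± 6.05 CPM in control (adjusted p = 0.0629). Cst7, a cystatin that inhibits lysosomal cathepsins, had a log2 fold change of 0.91 (adjusted p = 0.29). Ctsd, a lysosomal protease, was at 4271 ± 567 CPM in ADQ and 5169 ± 631 CPM in control (adjusted p = 0.344). Apoe had a log2 fold change of -0.22 and Spp1 one of -0.18, and neither passed (adjusted p = 0.575 for Apoe and 0.486 for Spp1).

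**Figure D5:**
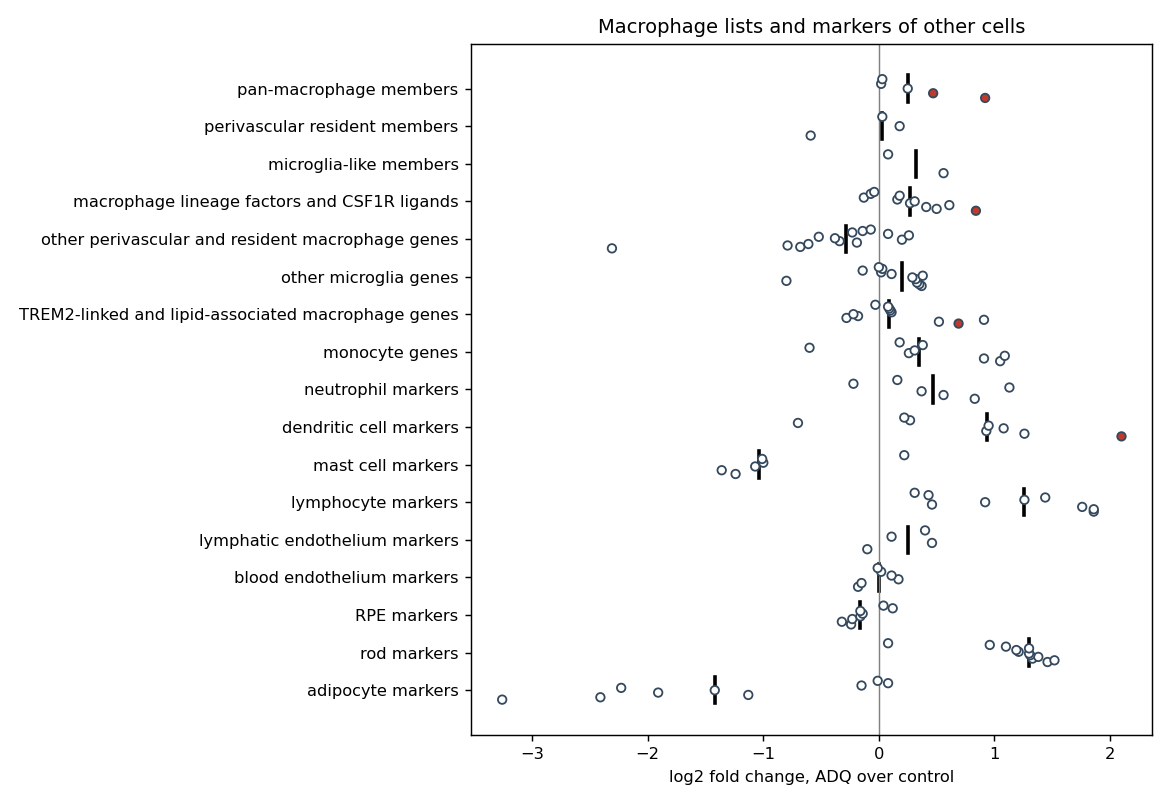
Log2 fold change (ADQ over control) of every tested gene in each list, 1 point per gene, filled red where the edgeR adjusted p was under 0.05, with a black bar at the list median. The filled points are Aif1, Adgre1, Irf8, Clec7a and Xcr1, and the medians range from -1.42 for adipocyte markers to 1.30 for rod markers.

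Among markers of other immune cells, 1 of 8 dendritic cell and 0 of 8 monocyte genes passed, against 0.827% of all genes tested. None passed among 9 lymphocyte, 6 tested neutrophil and 6 tested mast cell markers. Of 8 dendritic cell markers 1 rose, Xcr1, the chemokine receptor of cross-presenting dendritic cells, at 3.59 ± 0.68 CPM in ADQ and 0.835 ± 0.446 CPM in control (log2 fold change 2.10, edgeR adjusted p = 0.0141, up to 0.0577 without 1 library). The summed dendritic list was 30.4 to 37.8 CPM in ADQ and 17.8 to 24.1 CPM in control, without overlap, and its median log2 fold change was 0.94. Flt3, the growth factor receptor of dendritic cell precursors, had a log2 fold change of 1.26 (adjusted p = 0.0547). Of 8 monocyte genes none passed, with a median log2 fold change of 0.35 and a summed level of 67.7 to 87.5 CPM in ADQ and 40.8 to 85.7 CPM in control. Ccr2, the receptor by which monocytes leave the marrow, was at 7.42 ± 2.41 CPM in ADQ and 3.58 ± 1.49 CPM in control (adjusted p = 0.108). Ly6c2, the surface marker of classical monocytes, had a log2 fold change of 0.91 (adjusted p = 0.138) and Ms4a4c one of 1.09 (adjusted p = 0.141). Of 9 lymphocyte markers none passed, with a summed level of 67.2 to 98.7 CPM in ADQ and 23.2 to 69.9 CPM in control. Control 5 was the highest control in this sum, with the other controls at 23.2 to 36.7 CPM, and also in the monocyte and dendritic sums. All 9 had a log2 fold change above 0, with a median of 1.26, against 10724 of all 20684 genes tested. An unadjusted edgeR p under 0.05 was seen in 7 of the 9, against 13.8% of all genes tested. The same held for 5 of 8 dendritic cell and 3 of 8 monocyte genes. Among tested markers it also held for 3 of 6 of neutrophils and 2 of 6 of mast cells. Cd3g, which encodes a CD3 chain of T cells, averaged 11.2 ± 2.68 CPM in ADQ and 3.07 ± 3.27 CPM in control (edgeR adjusted p = 0.218). Ncr1, a receptor of natural killer cells, had a log2 fold change of 1.86 (adjusted p = 0.175). Of 6 tested neutrophil markers none passed, with a median of 0.47 and a summed level of 25.7 to 35.3 CPM in ADQ and 24.4 to 31.9 CPM in control. Ly6g, Mpo and Ngp were too low to be tested. Monocytes and dendritic cells also express Aif1, Cx3cr1 and Lyz2. The part of these cells and of lymphocytes in the differences of the 10 genes was not tested. The mast cell list had 0 of 6 tested members past the threshold and a median of -1.04, and blood endothelium 0 of 6 with a median of 0.00.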

How the data were processed

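RNA of the RPE/choroid complex was measured in 5 ADQ and 5 control samples, grouped by title. Per the labels' protocols, TRIzol, NucleoSpin columns and SMARTer amplification were used. Per the submitters' processing notes the build was GRCm38 and the tools included bcl2fastq, DRAGEN, edgeR and limma, without roles. The strand setting of the counting was not stated there. The authors deposited raw counts per Ensembl gene (55774 entries, 55487 genes after removing 287 repeats). A second file of the authors, already deposited as results, gives log2 CPM, log2 fold changes and p-values.

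The 10 genes and all lists were chosen with earlier results of these data known. Counts were tested over the whole table with edgeR 4.0.16 in R 4.3.3: filterByExpr (minimum count 10, minimum total 15, 20684 genes kept), TMM, robust quasi-likelihood fit, Benjamini-Hochberg adjustment over all genes, threshold 0.05. The SE was taken as |log2 fold change| divided by the root of the F statistic, and 95% intervals used 8 residual degrees of freedom. RPKM used GENCODE M21 exonic length, with the exons of all annotated transcripts merged. Profiles used log2 CPM with a prior count of 2. The procedure was tested on simulated data. No 2 libraries were duplicates (smallest chi-square per degree of freedom 33.9 over 45 pairs).

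Genes were named by rule: the 10 genes, in other lists those past the threshold and up to 4 with the smallest p, and the 3 nearest profiles to Csf1r, Mrc1 and Cx3cr1, of which 1 list gene is not reported here. Il34, Spi1, Tyrobp, Stab1, Tmem119, P2ry12, Sall1, Apoe, Spp1, and single markers of other cells were named after their values were seen. Alternatives were RLE, upper quartile or library-size scaling, no filter or at least 1 CPM in 5 libraries, DESeq2 1.42.0, voom in limma 3.58.1, the ordinary instead of the robust fit, a test against a 1.2-fold change, leaving out each library, a block on replicate number, and rod marker level as a covariate. The covariate for exonic length trend was chosen after seeing the data.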

Additional observations from a re-analysis of the deposited data

Results flagged for a closer look

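In the groups of 5 libraries examined for the 10 genes and the lists, 48 in all, 1 library stood far from the rest of its group. Control 1 had a mean of 6.35 log2 CPM in rod markers, against 3.98 to 4.32 log2 CPM in the other controls. The rule flags about 1 in 20 such groups by chance, and here it flagged 1 of 48 (2.08%). The groups share libraries, so this share cannot decide about a single flag. Why control 1 was high in rod markers was not tested. No library of any of the 10 genes stood apart in this way.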

How the results depend on the processing

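Aif1 kept its direction and its call under every alternative run, and its log2 fold change with 1 library left out ran from 0.84 to 1.05. Adgre1 kept its direction but lost its call with RLE scaling (0.46, adjusted p = 0.0538), in the test against a 1.2-fold change (0.47, adjusted p = 0.349) and without any single library (0.41 to 0.52), so the number of the 10 genes called was 1 with RLE scaling and 1 without any single library. The cause of the loss with RLE was not tested; each left-out fit has fewer samples. Cx3cr1 passed with DESeq2 (0.55), the rod covariate (0.71) and the length trend (0.55), which brings the count of called genes to 3 in each. Genes with a difference near 0 changed sign: Csf1r with voom (-0.02) and between -0.02 and 0.04 without 1 library, Cd68 with voom (-0.01) and between -0.11 and 0.11, Cd163 with the length trend (-0.02) and between -0.20 and 0.33, and Trem2 between -0.07 and 0.17. Lyz2, Mrc1 and Lyve1 kept their direction and passed under none.

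Over all genes the count of 171 calls became 773 with DESeq2, 664 with voom, 694 with the replicate block, 535 with the length trend, and 78 to 357 without 1 library (78 without control 4, 81 without ADQ 2, 87 without ADQ 4, 96 without control 1, 99 without ADQ 3, 357 without control 5). The cause was not tested. Whether the replicate numbers pair the samples is not stated in the labels used here. Same-numbered libraries had correlations of -0.125 to 0.263 in their deviations from the group means. By this measure ADQ 3 was nearest to control 3, and the other ADQ libraries to a control of another number. With the replicate block Aif1 (log2 fold change 0.93), Adgre1 (0.47) and Cx3cr1 (0.52) kept their side of the threshold. The lowest counts of the 10 genes in single libraries were 28 for Cd163 and 79 for Lyve1, and how much of their spread is counting error was not tested.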
